A study of Mus musculus with 4 samples.

Results

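Fecal bacteria of mice given neomycin by mouth were compared with those of mice given phosphate-buffered saline (PBS) by mouth, in stool of day 4. Libraries were chosen from the authors' sample sheets by day, route and agent, which gave 4 oral neomycin and 5 oral PBS libraries of 198 in the series, 91 of them from day 4. All mice were wild-type C57BL6/J animals of 8 to 12 weeks, kept on standard chow under specific pathogen-free conditions. The neomycin mice received 2.5 mg of the drug in 100 µl of PBS by gavage, 2 times a day for 3 days and a last time on day 4. The controls received 100 µl of PBS on the same schedule, and mice were euthanized 4 hours after the last dose. Each library is the stool of a different mouse by its sample name. Sex and cage were not used, so an effect of either was not separated from that of neomycin. The p-values measure the spread between mice. Exact tests at day 4 use the 9 compared mice, and limma fits at day 4, unless stated, the mice of all 18 groups. GEO lists 4 records, the barcode and sequence files of 2 multiplexed runs, and the groups come from the sample sheets. All 9 libraries belong to run ok122, so no run difference lies between the groups.

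Neomycin is an aminoglycoside that binds the small subunit of the bacterial ribosome and is poorly absorbed from the gut. Its uptake into a cell depends on an energised membrane, and many strict anaerobes take up little of it. Mouse stool is dominated by strict anaerobes of the phyla Bacteroidota, which break down plant and host glycans, and Firmicutes, which include many butyrate producers. The measurement is a table of the V4 stretch of the 16S rRNA gene, with taxa named at up to 7 ranks, and names such as CAG-485 are placeholders for genera known mainly from genomes. A V4 name at species rank stands for a row of the table and may not separate close relatives. Values are shares of reads, so more cells of a taxon and fewer cells of the others cannot be told apart.

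Recovered depth was 29006 to 81657 reads in the neomycin libraries and 18152 to 64482 in the PBS libraries, so that the share below which a taxon at 0 may lie, 3 reads, was 0.00367 to 0.0165% of a library. The neomycin libraries held 41, 66, 92 and 111 taxa in replicates 1 to 4, and the PBS libraries 93 to 177. Genera of a list of common reagent contaminants summed to 0 to 0.143% of reads and taxa without a phylum to at most 0.0326%. Neomycin replicate 1 stood apart from the other 8 libraries. Calls on named taxa that it decides are also given without it, or counted among the fits that left out a library.

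The totals of the 2 large phyla overlapped between the groups, while the genera inside each of them differed. For Firmicutes the test of genus composition passed at full depth and not at equal depth. Bacteroidota held 95.0, 72.4, 84.1 and 81.8% of reads in neomycin replicates 1 to 4 and 92.2, 92.9, 94.9, 72.2 and 74.7% in PBS replicates 1 to 5. The means were 83.3% ± 9.28 (SD, n = 4) and 85.4% ± 10.98 (n = 5), a difference of -2.08 percentage points (two-sided exact permutation p = 0.778, adjusted p = 0.778 over 6 exact tests). The Firmicutes phyla together held 0.671, 5.12, 12.9 and 14.5% in the neomycin libraries and 7.17, 6.64, 4.46, 26.7 and 24.8% in PBS, with a difference in means of -5.68 percentage points (exact permutation p = 0.413, adjusted p = 0.495). Neomycin replicate 1 had the lowest Firmicutes share of the 9 libraries, at 0.671%, and the other 3 lay within the PBS range.

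When the reads of each phylum were scaled to 1, the genus composition inside it differed between the groups. The share of Bray-Curtis variation that lay between the groups (R2) was 0.378 inside Bacteroidota and 0.318 inside Firmicutes (exact permutation p = 0.00794 for each, the smallest that 4 libraries against 5 allow, adjusted p = 0.0238). This test also responds to unequal scatter. Inside Bacteroidota the mean distance between 2 neomycin libraries was 0.515, between 2 PBS libraries 0.182, and between the groups 0.506. Inside Firmicutes the same distances were 0.452, 0.425 and 0.541. With families in place of genera, R2 was 0.192 inside Bacteroidota and 0.263 inside Firmicutes, and neither passed (adjusted exact p = 0.571 and 0.381). Neomycin replicate 1 held 233 Firmicutes reads. With each library thinned at random to 1000 reads, R2 was 0.380 inside Bacteroidota (adjusted exact permutation p = 0.0476). Inside Firmicutes it was then 0.201 and did not pass (adjusted exact permutation p = 0.0952).

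The level at which the exchange could be seen differed between mice. At family level, neomycin replicates 1 to 4 lay at mean Bacteroidota distances of 0.670, 0.123, 0.0906 and 0.125 from the PBS libraries, against 0.106 to 0.157 among PBS libraries. Replicate 1 lay above the PBS range there, replicates 2 and 4 within it and replicate 3 below it. At genus level the distances were 0.928, 0.441, 0.302 and 0.354 against 0.151 to 0.233, and at the level of table rows 0.932, 0.510, 0.399 and 0.444 against 0.180 to 0.279. All 4 neomycin libraries lay above the PBS range at both of these levels. Inside Firmicutes the groups overlapped at each of the 3 levels, and at genus level the neomycin libraries stood at 0.602, 0.552, 0.455 and 0.553 and the PBS libraries at 0.385 to 0.494.

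**Figure D1:**
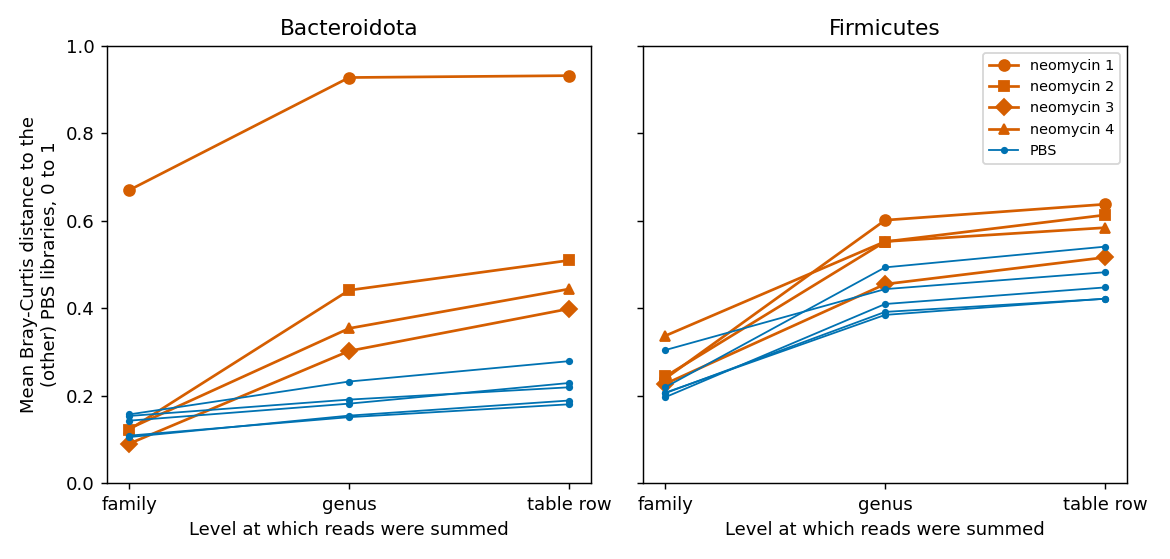
Mean Bray-Curtis distance (0 to 1) of each oral library to the PBS libraries, or for a PBS library to the other 4, with reads of a phylum summed by family, by genus or left as table rows. Inside Bacteroidota neomycin replicates 2 and 4 lie among the PBS libraries and replicate 3 below them at family level, and all 3 lie above them at the 2 finer levels.

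The Shannon index of genera, a measure of diversity, was compared inside each phylum as well. Inside Firmicutes it was 1.04, 2.38, 1.95 and 2.18 in the neomycin libraries and 2.96, 3.18, 3.37, 2.68 and 2.18 in PBS. The groups overlapped, since neomycin replicate 2 lay above PBS replicate 5 and replicate 4 was nearly level with it. The difference of -0.986 missed the threshold after adjustment (exact permutation p = 0.0317, adjusted p = 0.0635). Inside Bacteroidota the index was 1.27, 1.77, 2.09 and 2.11 against 2.08, 2.14, 2.06, 2.23 and 1.94, and the difference of -0.279 did not pass (exact permutation p = 0.206, adjusted p = 0.310). Without neomycin replicate 1 the difference was -0.0994 inside Bacteroidota and -0.703 inside Firmicutes. Counted over table rows, the Bacteroidota index differed by -0.511 (adjusted exact permutation p = 0.0317).

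Across all genera, 22 of 95 changed by limma on log2(percent + 0.01), 6 higher with neomycin (6.32% of the genera tested) and 16 lower (16.8%), where a call is an adjusted p of at most 0.05. The fit took its spread from all 18 groups of day 4, and log2 changes on this scale understate those of rare genera. Of the 6 that rose, 3 are Bacteroidota, 1 is of the Firmicutes and 2 belong to other phyla. Of the 16 that fell, 14 are Firmicutes, 1 is of the Bacteroidota and 1 lies outside both. The median log2 change over all 95 genera was -1.02, and over the 17 Bacteroidota and 63 Firmicutes genera it was -1.19 and -1.16. In 5 genera every neomycin library lay above every PBS library (5.26%), and in 17 every one lay below (17.9%). Of the 22 called genera, 17 showed such a separation. An exact permutation test of each genus, added after the values were seen, passed none after adjustment over 95 genera (smallest adjusted p = 0.0685), with 30 genera at an unadjusted p under 0.05, against 40 by limma. The smallest exact p that 4 libraries against 5 allow is 0.0159, reached only without overlap. The smallest adjusted p is thus set by the number of genera without overlap, and this test cannot decide on single genera. Of the 22 genera, 10 were called in each of the 9 fits that left out a single library, and the count was 15 without neomycin replicate 1, of which 13 were among the 22. The other 2, named here after their values were seen, were called higher without replicate 1, in which both were at 0. UBA2813, of the Gastranaerophilaceae, held 0%, 0.417%, 1.70% and 1.08% against 0.0731%, 0.0496%, 0.0604%, 0.0357% and 0%, with an adjusted p of 0.0991 with replicate 1 and 0.0227 without it by limma. Ventrimonas, of the Lachnospiraceae, held 0%, 0.676%, 0.0959% and 0.389% against 0.0687%, 0.0220%, 0.0179%, 0.112% and 0.0260%, with 0.238 and 0.0286. Among table rows, 6 were called without replicate 1 but not with it, all of them higher. Among table rows 30 of 133 changed, 8 higher (6.02%) and 22 lower (16.5%), and the groups did not overlap in 6 rows that were higher (4.51%) and 27 that were lower (20.3%). Of 39 families 3 were higher (7.69%) and 4 lower (10.3%).

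Inside Bacteroidota, Bacteroides_H, Phocaeicola and Parabacteroides rose, and several genera of the Muribaculaceae were at lower shares in all 4 neomycin libraries. Bacteroides_H, a genus of versatile glycan degraders, held 38.0%, 4.40%, 7.34% and 10.4% of all reads in neomycin replicates 1 to 4 and 0.654%, 0.336%, 0.425%, 0.844% and 0.507% in PBS replicates 1 to 5. Every neomycin library was above every PBS library, and replicate 1 was far above the other 3 (log2 4.31, SE 1.52, adjusted p = 0.0298 by limma). Phocaeicola_A_858004, a close relative split from Bacteroides, held 42.4%, 0.0586%, 0.563% and 0.851% against 0.0222%, 0%, 0.0448%, 0.0248% and 0.0338% (log2 5.16, SE 1.75, adjusted p = 0.0260 by limma). Nearly all of its mean came from replicate 1, while the other 3 libraries were above PBS at under 1% of reads. Parabacteroides_B_862066, the genus that makes up the Tannerellaceae here, held 6.59%, 1.87%, 0.894% and 1.81% against 0.0487%, 0.0165%, 0.0761%, 0.0357% and 0.0494% (log2 5.37, SE 1.54, adjusted p = 0.00789 by limma). Its neomycin libraries were all above PBS, and it was called under each of the 21 other fits run. Without replicate 1, Bacteroides_H had an adjusted p of 0.108 by limma, Phocaeicola 0.190 and Parabacteroides 0.0320. The first 2 were also at an adjusted p of 0.0511 by limma without PBS replicate 2, and Bacteroides_H at 0.0566 without neomycin replicate 4.

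Prevotella, the other large genus of the Bacteroidaceae, held 0.213%, 9.19%, 17.6% and 18.3% in the neomycin libraries and 28.2%, 15.0%, 30.3%, 9.54% and 28.3% in PBS. It was near absent in replicate 1 alone, the groups overlapped, and it did not pass (log2 -2.003, SE 1.40, adjusted p = 0.294 by limma). The Bacteroidaceae as a family therefore held 80.6%, 13.7%, 25.5% and 29.6% with neomycin against 28.9%, 15.3%, 30.8%, 10.4% and 28.8% in PBS, and no call was made (adjusted p = 0.836 by limma). Bacteroides_H and Phocaeicola together took 84.7%, 6.16%, 9.40% and 13.7% of Bacteroidota reads against 0.362% to 1.20%.

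**Figure D2:**
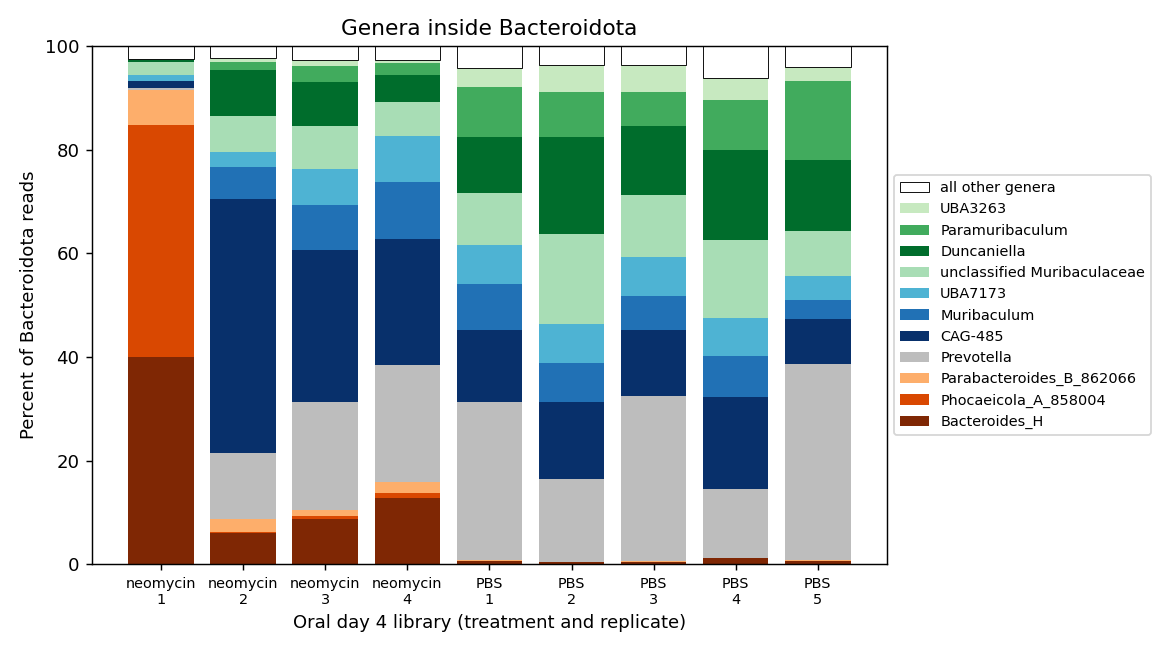
Share of Bacteroidota reads (percent) held by each genus in the 4 oral neomycin and 5 oral PBS libraries of day 4, as stacked bars. Bacteroides_H, Phocaeicola and Parabacteroides fill most of the bar of neomycin replicate 1, and the bars of replicates 2 to 4 hold a wider CAG-485 band and narrower Duncaniella, Paramuribaculum and UBA3263 bands than PBS.

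Muribaculaceae, a family of glycan-degrading anaerobes typical of the mouse gut, took 5.67%, 77.4%, 67.0% and 59.9% of Bacteroidota reads with neomycin and 58.6% to 82.5% in PBS. Replicates 2 to 4 lay within the PBS range and replicate 1 far below it. None of its 8 genera tested was called in the fit of all genera (median log2 change -1.62, against -1.02 over all 95), and 4 of them did not overlap with PBS and were lower, against 17.9% of all genera. Paramuribaculum held 0.118%, 1.12%, 2.50% and 1.88% against 8.97%, 8.22%, 6.36%, 7.03% and 11.5% (log2 -3.18, SE 1.28, adjusted p = 0.0607 by limma). UBA3263 held 0.0489%, 0.541%, 1.06% and 0.494% against 3.25%, 4.81%, 4.78%, 3.06% and 1.94% (log2 -3.22, SE 1.36, adjusted p = 0.0759 by limma). Both lay below the PBS range in all 4 mice, without a call in the fit of all groups. With only the 9 compared libraries in the fit, both were called (adjusted p = 0.0247 and 0.0212 by limma) and no other genus of the family was. Duncaniella held 0.415%, 6.41%, 7.20% and 4.22% against 9.88%, 17.4%, 12.7%, 12.5% and 10.1% (log2 -2.02, SE 1.60, adjusted p = 0.339 by limma). CAG-873 held 0.0230%, 0.883%, 0.892% and 0.743% against 2.53%, 1.82%, 1.38%, 2.25% and 1.03% (log2 -2.19, SE 1.39, adjusted p = 0.241 by limma). In these 2 genera as well, replicate 1 was the lowest of the 9 libraries.

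The remaining genera of the family overlapped with PBS. CAG-485 held 1.30%, 35.5%, 24.6% and 19.99% with neomycin and 12.7%, 13.8%, 12.0%, 12.8% and 6.55% in PBS (log2 0.13, SE 1.59, adjusted p = 0.974 by limma). Its 3 highest shares were those of neomycin replicates 2 to 4 and its lowest that of replicate 1. Muribaculum held 0.107%, 4.41%, 7.24% and 8.89% against 8.11%, 6.84%, 6.39%, 5.72% and 2.63% (adjusted p = 0.550 by limma). UBA7173 held 1.12%, 2.08%, 5.91% and 7.39% against 7.05%, 7.15%, 7.06%, 5.32% and 3.55% (adjusted p = 0.703 by limma). Unclassified Muribaculaceae held 2.25%, 5.05%, 6.95% and 5.35% against 9.27%, 16.0%, 11.3%, 10.9% and 6.49% (adjusted p = 0.550 by limma). In all 3 the lowest share was again that of replicate 1.

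Scaled to Bacteroidota reads, 5 of 17 genera changed, 3 higher (17.6% of those tested) and 2 lower (11.8%). The 3 that rose were Bacteroides_H (log2 4.35, SE 1.55, adjusted p = 0.0272 by limma), Phocaeicola (log2 5.25, adjusted p = 0.0272) and Parabacteroides (log2 5.44, adjusted p = 0.00599). Paramuribaculum fell, with 0.124% to 2.97% of Bacteroidota reads against 6.70% to 15.3% in PBS (log2 -3.15, SE 1.16, adjusted p = 0.0272 by limma). Unclassified Rikenellaceae, of a family of bile-tolerant anaerobes, fell, with 0% to 0.0428% against 0.0625% to 0.275% (log2 -3.12, SE 0.89, adjusted p = 0.00668 by limma). It was also the 1 Bacteroidota genus called lower over all reads (log2 -3.01, SE 0.80, adjusted p = 0.00616 by limma). UBA3263 missed the threshold (adjusted p = 0.0579 by limma). Parabacteroides and unclassified Rikenellaceae kept the call in each of the 9 fits that left out a library, while the other 3 lost it without neomycin replicate 1 (adjusted p = 0.152 to 0.289 by limma) and without PBS replicate 2 (0.0570 to 0.0614). Paramuribaculum also lost it without PBS replicate 5 (0.0596). The exact permutation test of each genus, added after the values were seen, passed 9 of the 17, each with no overlap (adjusted p = 0.02998). They were the 5 genera above together with UBA3263, Duncaniella, CAG-873 and unclassified Muribaculaceae, all of which were lower. Each of the 9 stood at the smallest p that 4 libraries against 5 allow, so this test restates which genera did not overlap.

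Inside several genera some rows of the table were called and others were not; the difference between rows was not tested. In CAG-485, the row sp002493045 held 0.982%, 35.3%, 24.0% and 19.8% of all reads with neomycin and 9.10%, 10.2%, 9.87%, 8.44% and 2.68% in PBS (log2 0.64, SE 1.49, adjusted p = 0.743 by limma). It was above every PBS library in replicates 2 to 4 and below all of them in replicate 1, and was not called. The row sp002362485 of the same genus fell, with 0.322%, 0.165%, 0.529% and 0.130% against 3.32%, 2.74%, 1.81%, 4.00% and 3.53% (log2 -3.54, SE 1.35, adjusted p = 0.0469 by limma). The row sp900547755 fell too, with 0%, 0.0896%, 0.0561% and 0.0453% against 0.299%, 0.854%, 0.311%, 0.382% and 0.341% (log2 -3.23, SE 1.07, adjusted p = 0.0202 by limma). All 4 neomycin libraries lay below PBS in both rows. The call on sp002362485 was lost in 7 of the 9 fits that left out a library (adjusted p = 0.0589 to 0.110 by limma), and that on sp900547755 without neomycin replicate 1 (0.116). Of CAG-485 reads, sp002493045 thus made up 75.3%, 99.3%, 97.6% and 99.1% with neomycin and 40.8% to 82.3% in PBS.

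Muribaculum also held a called and an uncalled row. Muribaculum intestinale fell, with 0.0547%, 0.0517%, 0.208% and 0.187% against 3.55%, 1.86%, 2.03%, 2.21% and 1.61% (log2 -4.25, SE 1.33, adjusted p = 0.0151 by limma), and every neomycin library was below every PBS library. The call was kept whichever library was left out. Muribaculum gordoncarteri held 0%, 2.11%, 6.04% and 7.05% against 2.97%, 2.68%, 2.24%, 2.09% and 0.694% (log2 -0.98, SE 1.52, adjusted p = 0.596 by limma). It was the highest of the 9 in replicates 3 and 4 and at 0 in replicate 1. In replicates 2 to 4, M. intestinale made up 1.17%, 2.88% and 2.11% of Muribaculum reads, against 27.2% to 61.3% in PBS.

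In Paramuribaculum, the row sp001689565 fell, with 0%, 0.0483%, 0.152% and 0.0992% against 2.08%, 3.83%, 2.01%, 1.90% and 1.06% (log2 -5.15, SE 1.03, adjusted p = 0.000177 by limma). Paramuribaculum intestinale held 0.0777%, 1.03%, 0.979% and 0.391% against 3.01%, 3.79%, 2.98%, 2.25% and 2.33%, also without overlap, and missed the threshold (adjusted p = 0.0558 by limma). The row sp000431155 overlapped, with 0.0403%, 0.0414%, 1.36% and 1.39% against 3.88%, 0.600%, 1.37%, 2.88% and 8.07% (adjusted p = 0.0706 by limma). Of the 3 rows, sp001689565 alone was called, also whichever library was left out. In Duncaniella, D. dubosii held 0.124%, 1.78%, 2.19% and 0.841% against 5.51%, 9.72%, 7.76%, 7.48% and 5.20%, without overlap and without a call (log2 -3.09, SE 1.62, adjusted p = 0.132 by limma). D. muris held 0.0806%, 1.97%, 3.70% and 0.905% against 1.81%, 2.62%, 1.54%, 2.74% and 2.93%, and the groups overlapped (adjusted p = 0.488 by limma). In UBA7173, the minor row sp900540205 fell, with 0% to 0.00735% against 0.0156% to 0.116% (log2 -2.14, SE 0.69, adjusted p = 0.0172 by limma, adjusted p = 0.0537 without PBS replicate 2), while the main row sp002491305 held 0.420% to 7.04% against 2.51% to 6.32% (adjusted p = 0.638 by limma). Of 19 Muribaculaceae rows tested, 5 fell, against 16.5% of all rows, none rose, and 9 lay below PBS without overlap, against 20.3% of all rows (median log2 change -2.14, against -1.12 over all 133 rows).

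Among the genera that rose, both Parabacteroides species did. P. distasonis held 3.39%, 0.631%, 0.131% and 0.669% against 0.0222%, 0%, 0.0201%, 0% and 0.0312% (log2 5.02, SE 1.40, adjusted p = 0.00671 by limma). P. goldsteinii held 3.18%, 1.22%, 0.763% and 1.14% against 0.0266%, 0.0165%, 0.0559%, 0.0357% and 0.0182% (log2 5.16, SE 1.40, adjusted p = 0.00552 by limma). Neither overlapped with PBS, and both were called whichever library was left out. All Phocaeicola reads of these libraries were of P. vulgatus. In Bacteroides_H, the row without a species rose, with 34.3%, 3.91%, 5.18% and 9.14% against 0.432%, 0.281%, 0.208%, 0.219% and 0.309% (log2 4.95, SE 1.71, adjusted p = 0.0246 by limma). Bacteroides_H intestinalis also rose, with 3.66%, 0.155%, 0% and 0.524% and 0 in all 5 PBS libraries (log2 4.58, SE 1.37, adjusted p = 0.0101 by limma), a mean at least 128-fold higher than the mean share that 3 reads per PBS library give. It was found in 3 of 4 neomycin libraries. Without neomycin replicate 1, the row without a species had an adjusted p of 0.0943 and B. intestinalis of 0.103 by limma. B. rodentium overlapped, at 0.0345%, 0.331%, 2.17% and 0.724% against 0.222%, 0.0551%, 0.206%, 0.575% and 0.159% (adjusted p = 0.538 by limma).

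**Figure D3:**
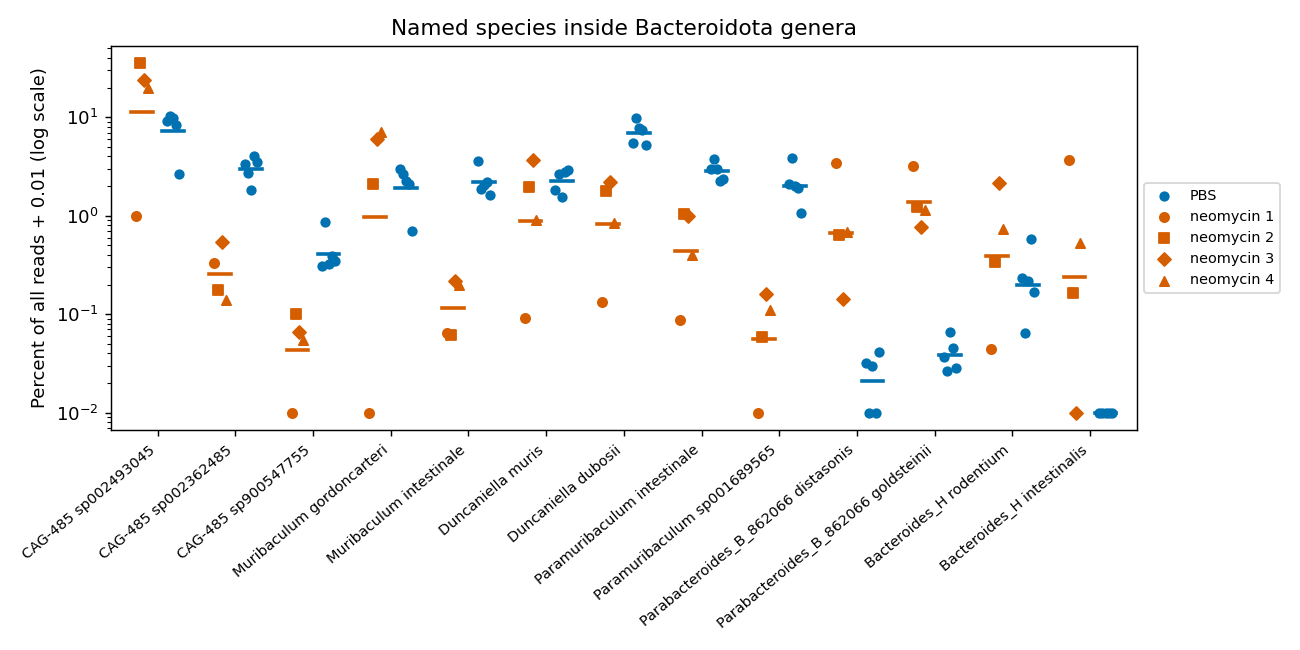
Percent of all reads plus 0.01 (log axis) of named table rows inside Bacteroidota genera, by library, with orange symbols for the 4 neomycin and blue dots for the 5 PBS libraries, and bars for the group means of the log values. Points at 0.01 are libraries in which the row is at 0. CAG-485 sp002362485 and Muribaculum intestinale lie below PBS in all 4 mice, while CAG-485 sp002493045 lies above PBS in replicates 2 to 4.

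Of the smaller families of the phylum, the Rikenellaceae and the Marinifilaceae each held a row that fell. A row of Alistipes_A_871400 without a species was at 0 in all 4 neomycin libraries against 0.102%, 0.369%, 0.356%, 0.178% and 0.416% (log2 -4.71, SE 1.04, adjusted p = 0.000600 by limma). As a genus Alistipes held 0.216%, 0.503%, 0.830% and 0.868% against 0.919%, 0.600%, 1.44%, 1.21% and 0.918%, and it was not called (adjusted p = 0.632 by limma). Odoribacter laneus, a producer of short-chain fatty acids, fell, with 0% to 0.0845% against 0.170% to 0.439% (log2 -3.40, SE 1.13, adjusted p = 0.0202 by limma), with no overlap. Without neomycin replicate 1 its adjusted p was 0.0884 by limma.

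Inside Firmicutes, 14 of 63 genera tested over all reads fell and 1 rose, and the genera that fell were at or near 0 with neomycin. They include 7 of 27 Lachnospiraceae, 2 of 6 Oscillospiraceae and 2 of 5 Ruminococcaceae genera, against 16.8% of all genera tested. In the Lachnospiraceae, COE1 and Eubacterium_J, with mean shares of 0.480% and 0.353% in PBS, were among those that fell. The larger share of Lachnospiraceae reads without a genus did not pass, nor did the more abundant genera of the Oscillospiraceae and Ruminococcaceae. Lachnospiraceae, a family with many butyrate producers, took 65.2%, 48.1%, 55.3% and 40.6% of Firmicutes reads against 38.8% to 71.4% in PBS. Oscillospiraceae took 31.3%, 23.0%, 31.9% and 45.9% against 13.9% to 22.8%, and all 4 neomycin libraries lay above all PBS libraries in this share. Over all reads the Oscillospiraceae held 0.210%, 1.18%, 4.10% and 6.63% against 1.11%, 0.926%, 0.946%, 6.07% and 4.12%, with overlap and no call (adjusted p = 0.951 by limma), and the Lachnospiraceae held 0.438% to 7.12% against 1.73% to 18.1% (adjusted p = 0.585 by limma). The number of Firmicutes reads limits what a 0 means here. It was 233, 1484, 9401 and 11803 in the neomycin libraries and 1205 to 17203 in PBS, so that 3 reads come to 1.29% of Firmicutes reads in replicate 1 and to 0.0254 to 0.202% in replicates 2 to 4.

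Of 27 Lachnospiraceae genera tested over all reads, 7 fell and 1 rose, against 16.8% and 6.32% of all genera (median log2 change -1.51, against -1.02 over all 95). COE1 was at 0 in neomycin replicates 1 to 3 and at 0.00980% in replicate 4, against 0.219%, 0.424%, 0.233%, 0.664% and 0.861% in PBS (log2 -5.17, SE 1.13, adjusted p = 0.000534 by limma). It was called under each of the 21 other fits run. Eubacterium_J was seen in replicate 3 alone, at 0.0466%, against 0.171%, 0.0716%, 0.105%, 1.21% and 0.205% (log2 -3.79, SE 1.03, adjusted p = 0.00623 by limma). UBA3282 was seen in replicate 4 alone, at 0.00735%, against 0.0620%, 0.215%, 0.0492%, 0.516% and 0.0884% (log2 -3.59, SE 1.04, adjusted p = 0.00789 by limma). None of these 3 overlapped with PBS. Butyribacter and Schaedlerella were at 0 in all 4 neomycin libraries, against 0.0133% to 0.247% (log2 -2.79, SE 0.85, adjusted p = 0.0116 by limma) and 0.00780% to 0.212% in PBS (log2 -2.79, SE 1.01, adjusted p = 0.0345 by limma), means at least 15.2-fold and 13.4-fold lower than in PBS with 3 reads per library as the floor. The genus 14-2 held 0% to 0.0233% against 0.0179% to 0.380% (log2 -2.65, adjusted p = 0.0405 by limma), and Eubacterium_F 0% to 0.0367% against 0.0354% to 0.292% (log2 -2.12, adjusted p = 0.0298 by limma), both with overlap. Schaedlerella lost the call in 6 of the 9 fits that left out a library (adjusted p = 0.0518 to 0.0985 by limma), 14-2 in 5 (0.0632 to 0.132), Eubacterium_F in 3 (0.101 to 0.108) and Butyribacter in 1, without PBS replicate 4 (0.0573 to 0.0573).

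Merdisoma was the 1 genus of the family that rose, with 0%, 0.214%, 0.275% and 0.652% against 0%, 0%, 0%, 0.0822% and 0.0650% (log2 2.62, SE 1.002, adjusted p = 0.0457 by limma). It was at 0 in replicate 1 and highest of the 9 libraries in the other 3, and its call was lost in 6 of the 9 fits that left out a library (adjusted p = 0.0909 to 0.189 by limma). Without replicate 1 its adjusted p was 0.00617 by limma. The largest share of the family, that of reads without a genus, did not pass, at 0.438%, 1.22%, 6.17% and 4.05% against 2.37%, 1.03%, 0.627%, 11.01% and 13.4% (log2 -0.63, SE 1.45, adjusted p = 0.780 by limma). It took 23.9% to 65.2% of Firmicutes reads with neomycin against 14.1% to 54.1%. At the level of table rows, 3 of 4 COE1 rows tested fell. The row sp000403215 was at 0 in the neomycin libraries against 0.0606% to 0.398% (adjusted p = 0.0164 by limma), the row sp000403335 at 0 against 0.00895% to 0.303% (adjusted p = 0.00263), and the main row without a species at 0% to 0.00980% against 0.0606% to 0.304% (adjusted p = 0.0185).

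Of 6 Oscillospiraceae genera tested, 2 fell, against 16.8% of all genera. Enterenecus was at 0 in replicates 1 and 2 and at 0.0164% and 0.00857% in replicates 3 and 4, against 0.0842%, 0.127%, 0.166%, 0.408% and 0.151% (log2 -3.53, SE 0.99, adjusted p = 0.00765 by limma). Limivicinus held 0%, 0%, 0.00822% and 0.0318% against 0.0354%, 0.0551%, 0.0201%, 0.0729% and 0.0832%, with overlap (log2 -1.82, SE 0.61, adjusted p = 0.0256 by limma). Limivicinus lost the call in 4 of the 9 fits that left out a library (adjusted p = 0.0573 to 0.0968 by limma). The abundant genera of the family did not pass. Lawsonibacter held 0.158%, 0.427%, 1.10% and 1.15% of all reads against 0.208%, 0.264%, 0.159%, 0.996% and 0.580% (log2 0.62, SE 1.11, adjusted p = 0.708 by limma). As a share of Firmicutes reads it was 23.6%, 8.36%, 8.51% and 7.93% against 2.90%, 3.98%, 3.56%, 3.73% and 2.33%, so that all 4 neomycin libraries lay above PBS, with no call (log2 1.72, SE 1.62, adjusted p = 0.447 by limma). Dysosmobacter held 0.00864%, 0.590%, 2.28% and 4.90% of all reads against 0.379%, 0.281%, 0.315%, 2.41% and 1.63% (log2 -0.19, SE 1.36, adjusted p = 0.936 by limma), and 1.29%, 11.5%, 17.7% and 33.9% of Firmicutes reads against 5.28%, 4.23%, 7.08%, 9.04% and 6.56% (adjusted p = 0.873 by limma). Replicates 2 to 4 were above PBS in that share and replicate 1, with 3 reads of the genus, below it. Unclassified Oscillospiraceae held 0.0115%, 0.148%, 0.560% and 0.302% of all reads against 0.330%, 0.198%, 0.242%, 1.93% and 1.58% (adjusted p = 0.263 by limma).

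Among the other Firmicutes, 5 genera outside these 2 families fell, of the 14 that fell among all 63 Firmicutes genera tested. Over all 95 genera tested, 16.8% fell. Unclassified Dehalobacteriaceae were at 0 in all 4 neomycin libraries against 0.0620%, 0.0771%, 0.0336%, 0.335% and 0.244% (log2 -3.57, SE 0.73, adjusted p = 0.000196 by limma), a mean at least 22.5-fold lower. Ruminococcus_C_58660 was at 0 against 0.0930%, 0.0165%, 0.0559%, 0.0806% and 0.0572% (log2 -2.68, SE 0.49, adjusted p = 4.87e-05 by limma), at least 9.07-fold lower. Anaerotruncus, of the same Ruminococcaceae family, was at 0 against 0.0133%, 0.0386%, 0.0179%, 0.105% and 0.177% (log2 -2.55, SE 0.90, adjusted p = 0.0298 by limma), at least 10.5-fold lower. These 3 thus separated fully from PBS. CAG-273 was seen in replicate 4 alone, at 0.0171%, against 0.0310% to 0.151% (log2 -2.58, SE 0.73, adjusted p = 0.00789 by limma). Avispirillum was at 0 with neomycin against 0% to 0.0551%, and 1 PBS library was at 0 as well (log2 -1.36, adjusted p = 0.0405 by limma). Leaving out 1 library ended the call on Avispirillum in 6 of the 9 fits (adjusted p = 0.0586 to 0.137 by limma) and on Anaerotruncus in 5 (0.0566 to 0.105).

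Scaled to Firmicutes reads, 19 of 65 genera changed, 1 higher (1.54% of those tested) and 18 lower (27.7%). CAG-314, a Firmicutes_A genus of a family of the same name, was the 1 that rose, with 1.29%, 1.48%, 0.638% and 2.55% of Firmicutes reads against 0%, 0%, 0%, 0.134% and 0% (log2 6.30, SE 1.70, adjusted p = 0.00390 by limma). It was above PBS in all 4 neomycin libraries, with 3 reads in replicate 1. Over all reads it overlapped, with 0.00864%, 0.0758%, 0.0822% and 0.369% against 0%, 0%, 0%, 0.0357% and 0%, and was not called (adjusted p = 0.0812 by limma). COE1 fell, with 0% to 0.0678% against 2.49% to 6.39% (log2 -7.86, SE 1.70, adjusted p = 0.000266 by limma), and Ligilactobacillus, a lactic acid bacterium, was at 0 in all 4 libraries against 0.157% to 0.904% (log2 -5.27, SE 1.70, adjusted p = 0.0138 by limma). With 3 reads per library as the floor, the Ligilactobacillus mean was only at least 1.13-fold lower than in PBS. Log2 values of genera at 0 here rest on the added 0.01, which lies below the share of 3 reads in all 4 neomycin libraries. Acetatifactor was at 0 with neomycin and at 0.432%, 9.63%, 1.46%, 0% and 3.88% in PBS (log2 -6.24, SE 2.28, adjusted p = 0.0267 by limma), a mean at least 7.96-fold lower by the same floor. Its call was lost in 6 of the 9 fits that left out a library (adjusted p = 0.0501 to 0.0793 by limma). Over all reads, neither Ligilactobacillus (adjusted p = 0.0991 by limma) nor Acetatifactor (0.0759) was called. Thinned to 1000 reads per library, where the neomycin libraries keep few Firmicutes reads, 1 genus of 36 tested changed, and as a change from day 0 of the mouse, 4 did. The fit of the change from day 0 left out neomycin replicate 1 and PBS replicates 1 and 4. Their day 0 libraries held 90, 33 and 20 Firmicutes reads, under the limit of 100. Without neomycin replicate 1, the library of 233 Firmicutes reads, 2 were higher and 12 lower. Of the 19, 13 were called whichever library was left out, COE1, Ligilactobacillus and CAG-314 among them.

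**Figure D4:**
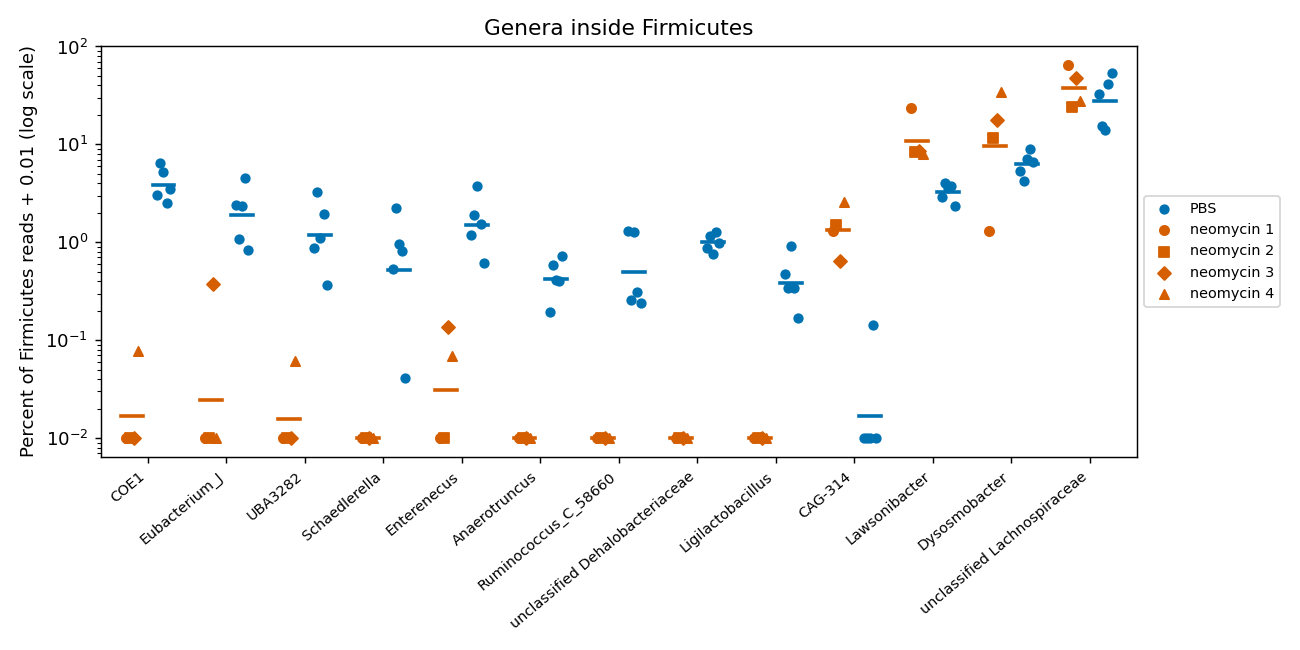
Percent of Firmicutes reads plus 0.01 (log axis) of genera inside Firmicutes, by library, with orange symbols for the 4 neomycin and blue dots for the 5 PBS libraries, and bars for the group means of the log values. Points at 0.01 are libraries in which the genus is at 0. The genera from COE1 to Ligilactobacillus lie below PBS, CAG-314 and Lawsonibacter above it, and unclassified Lachnospiraceae overlap.

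Outside both phyla, 2 of 15 genera tested rose and 1 fell, against 6.32% and 16.8% of all genera. Parasutterella, of the Burkholderiaceae_A family of the Proteobacteria, held 3.17%, 0.241%, 1.08% and 1.37% against 0.0775%, 0.0992%, 0.0492%, 0.0403% and 0.0572% (log2 3.87, SE 1.29, adjusted p = 0.0256 by limma), above PBS in all 4 libraries. Its adjusted p was 0.0908 without neomycin replicate 1 and 0.0560 without replicate 4. Stercorousia, of the Gastranaerophilaceae, non-photosynthetic relatives of the Cyanobacteria, held 0.0864%, 0.0448%, 0.0644% and 0.223% and was at 0 in all 5 PBS libraries (log2 3.29, SE 0.80, adjusted p = 0.00225 by limma), a mean at least 12.4-fold higher. Desulfovibrio_R_446353, a sulfate reducer, was seen in replicate 3 alone, at 0.00411%, against 0.0244%, 0.0441%, 0.0269%, 0.625% and 0.0806% (log2 -2.93, SE 0.85, adjusted p = 0.00789 by limma), and its adjusted p without PBS replicate 4, the highest, was 0.0669. Among the families called, Erysipelotrichaceae were higher (0% to 0.0356% against 0% to 0.00310%, adjusted p = 0.0437 by limma), and UBA660 (0% to 0.0245% against 0.0260% to 0.154%, adjusted p = 0.0340) and Eggerthellaceae (0 against 0.0134% to 0.0837%, adjusted p = 0.00263) were lower. Tannerellaceae and Burkholderiaceae_A rose (adjusted p = 0.0109 and 0.0294), and Dehalobacteriaceae and Desulfovibrionaceae fell (adjusted p = 0.000189 and 0.0156). Tannerellaceae, Dehalobacteriaceae and Eggerthellaceae were called whichever library was left out, and the other 4 were not. Of the 9 such fits, Erysipelotrichaceae lost the call in 8, UBA660 in 6, Burkholderiaceae_A in 4 and Desulfovibrionaceae in 1. Each of these 4 lost it without PBS replicate 4 (adjusted p = 0.0627 to 0.0787 by limma). The highest adjusted p was 0.162 by limma, for Erysipelotrichaceae without neomycin replicate 4.

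Before treatment no genus was called. At day 0, 0 of 85 genera differed between the 6 oral neomycin and 6 oral PBS libraries by limma, with 6 at an unadjusted p under 0.05, and of the 18 genera called at day 4 that could be tested there, 1 was at an unadjusted p under 0.05. R2 at day 0 was 0.141 inside Bacteroidota and 0.0522 inside Firmicutes (exact permutation p = 0.188 and 0.846). Day 0 libraries were shallow, at 318 to 38648 reads, so a rare taxon at 0 could lie at up to 0.943% in the shallowest. Prevotella was at 42.0%, 17.9%, 11.4% and 13.6% at day 0 in neomycin mice 1 to 4, and at 0.213%, 9.19%, 17.6% and 18.3% at day 4. In the PBS mice it was at 30.7% to 43.0% at day 0, so neomycin mice 2 to 4 lay below them before treatment. The neomycin mouse of replicate 1 had Bacteroides_H at 0% at day 0 in a library of 662 reads. Muribaculum intestinale was at 1.36%, 2.63%, 1.10% and 2.61% at day 0 in neomycin mice 1 to 4, and Paramuribaculum sp001689565 at 1.96%, 2.09%, 1.45% and 0.327%. All 8 of these values exceed the day 4 value of the same mouse. CAG-485 held 20.9%, 21.0%, 15.4% and 26.5% of Bacteroidota reads at day 0 in neomycin mice 1 to 4, and 1.37%, 49.1%, 29.3% and 24.4% at day 4. In the PBS mice it held 6.31% to 20.3% at day 0. The share of CAG-485 in neomycin mouse 4 was thus no higher at day 4 than at day 0. As a change from day 0, M. intestinale (adjusted p = 0.0489), Paramuribaculum sp001689565 (0.00624), P. distasonis (0.00825) and P. goldsteinii (0.00825) were called by limma, and CAG-485 sp002362485 was not (0.0818). In all, 13 genera were called on this scale, 11 of them among the 22. The Bray-Curtis distance of a mouse's Bacteroidota genera at day 4 from its own at day 0 was 0.932, 0.380, 0.284 and 0.271 with neomycin and 0.118 to 0.268 with PBS.

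Oral neomycin was set against neomycin injected into the peritoneum (6 mice) or a vein (4 mice), each relative to PBS of its own route (5 and 6 mice). The change differed from the intravenous one in 12 of 95 genera by the limma interaction contrast (12.6%), 1 toward higher and 11 toward lower with the oral route, and 10 of them were among the 22. COE1 was at 0.556% ± 0.254 (SD, n = 4) with intravenous neomycin and 0.721% ± 0.448 (n = 6) in its PBS, and the oral change was -4.98 log2 units from the intravenous one (SE 1.57, adjusted p = 0.0234 by limma). For UBA3282 the difference was -5.68 (SE 1.45, adjusted p = 0.0145 by limma), and for UMGS1994, a Firmicutes genus not called with oral neomycin, -4.88 (SE 1.46, adjusted p = 0.0234). The oral and intravenous changes were -3.59 and 2.10 for UBA3282, and -2.47 and 2.41 for UMGS1994. Neither intravenous change was called (adjusted p = 0.470 and 0.308 by limma). Stercorousia differed the other way, by 3.51 (SE 1.11, adjusted p = 0.0234 by limma). The intravenous PBS group holds 3 libraries of the other sequencing run.

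Against the intraperitoneal route, 0 of 95 genera differed (0% by the limma interaction contrast, 20 at an unadjusted p under 0.05). That group holds a library of 70 reads, and with only libraries of at least 1000 reads, 11 genera differed, 2 higher and 9 lower, 8 of them among the 22. COE1 (adjusted p = 0.0226), Merdisoma (0.0493) and Parasutterella (0.0493) were then among those called by limma. Bacteroides_H, Phocaeicola and Parabacteroides differed from the intravenous change by 3.25, 4.76 and 3.87 log2 units, without a call (adjusted p = 0.244, 0.144 and 0.178 by limma). Bacteroides_H reached at most 2.78% with intraperitoneal and 1.20% with intravenous neomycin.

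**Figure D5:**
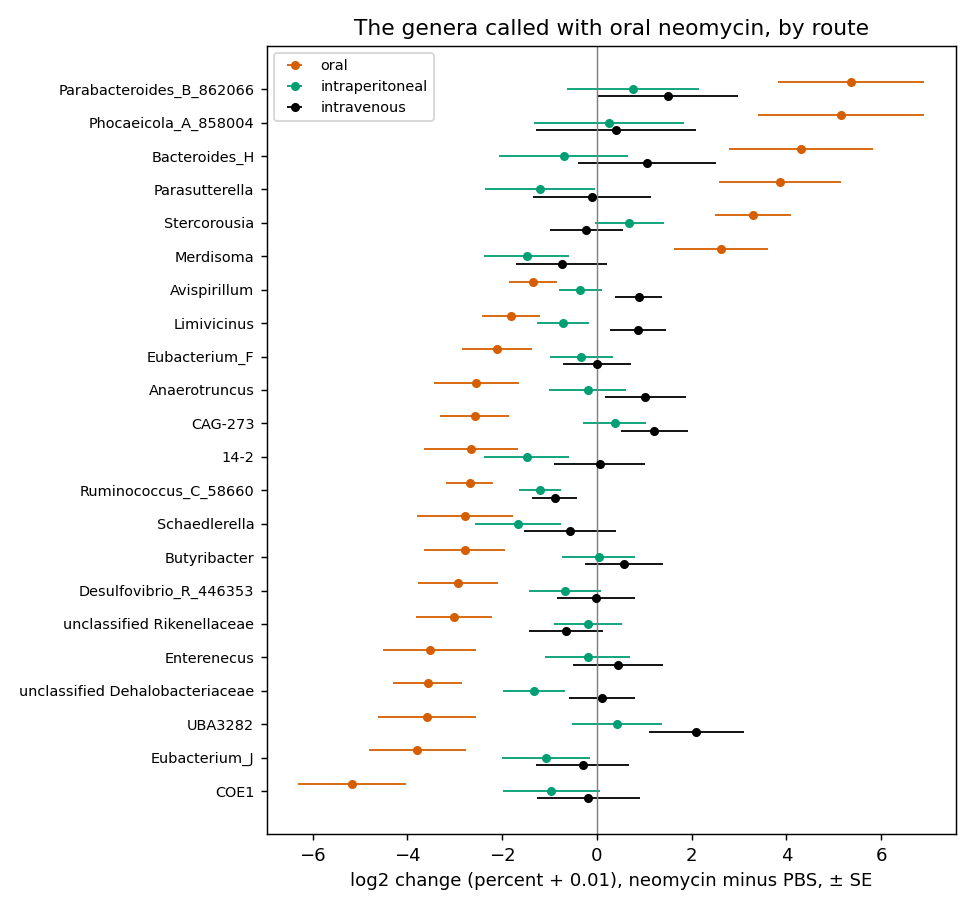
Log2 change (neomycin minus PBS of the same route, on percent + 0.01) with its standard error for the 22 genera called with oral neomycin, by oral, intraperitoneal and intravenous route. The genera were chosen by the oral values, which lie farther from 0 than most injected values. COE1 stands at -5.17 for the oral route and at -0.97 and -0.18 for the injected ones.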

How the data were processed

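Per the labels' protocols, DNA was extracted from stool, the V4 region of the 16S rRNA gene was amplified in 30 to 35 PCR cycles and sequenced on an Illumina MiSeq. No source used here states how reads were filtered and named. The signal deposited by the authors is a table of 488 taxa in 198 libraries, each scaled to a sum of 100000; empty cells (11.6%) were read as 0. Groups came from the deposited sample sheets. Every value above 0 was a whole number of steps of its library (tolerance 0.02 reads), which gave the depth; a factor shared by all counts would make it a lower limit. No count model was fitted. PCR reads are not independent molecules, so floors of 3 reads cover counting error only.

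Rows were summed to 316 genera and 107 families. Taxa present in at least 20% of day 4 libraries were tested with limma 3.58.1 (R 4.3.3; variance trend, 1 mean per group, 89 samples after 2 near-identical pairs were averaged), adjusted by Benjamini-Hochberg. Fits within a phylum left out libraries under 100 reads of it. Phylum percents, Shannon indices (natural log) and R2 were tested by exact permutation; two-sided p-values are 2 times the smaller tail (smallest possible 0.0159), and the 6 tests were adjusted together. Scripts were tested on simulated data.

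Genera named are those called with a mean of at least 0.02% in a group, Bacteroidota genera of at least 1% and Firmicutes genera of at least 0.5%, with their called or most abundant rows, called families and those of at least 1%, and the 3 largest differences by route in each direction. Libraries, lists and rules were chosen with earlier results of these data known. Rows with a species name of a named genus that were not called, and Acetatifactor, Ligilactobacillus and CAG-314 within Firmicutes, were added to show other members of a group. Alternatives covered pseudocount, filter, normalization, depth, baseline, run and leaving out each library.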

Additional observations from a re-analysis of the deposited data

Results flagged for a closer look

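Among 80 groups of values checked by Dixon's test, 7 were at 0 throughout and 5 had a single library above 0, which the test always marks. Of the other 68, 8 held a library far from the rest of its group, where chance gives about 1 in 20. Neomycin replicate 1 stood apart for Phocaeicola_A_858004 (42.4%, next 0.851%) and CAG-873 (0.0230%, next 0.743%). The 5 groups with a single library above 0 were all of neomycin: replicate 4 for CAG-273 (0.0171%), COE1 (0.00980%) and UBA3282 (0.00735%), and replicate 3 for Desulfovibrio_R_446353 (0.00411%) and Eubacterium_J (0.0466%). Replicate 2 stood apart for unclassified Rikenellaceae (0.0310%, next 0.00490%). In PBS, replicate 4 stood apart for Desulfovibrio_R_446353 (0.625%, next 0.0806%), Enterenecus (0.408%, next 0.166%), Eubacterium_F (0.292%, next 0.0716%) and Eubacterium_J (1.21%, next 0.205%), and replicate 5 was low for CAG-485 (6.55%, next 12.0%). PBS replicate 4 had the most reads of its group.

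The oral change differed from the intravenous one by the limma interaction contrast in UBA3282 (log2 -5.68), COE1 (-4.98), UMGS1994 (-4.88) and Stercorousia (3.51). The cause was not tested.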

How the results depend on the processing

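Limits come from 4 mice against 5, from rare genera near the floor of 3 reads, from few Firmicutes reads in neomycin replicate 1 and from shallow day 0 libraries. The named genera that were called kept their direction under every alternative in which they were tested. They kept the call in 337 of those fits and lost it in 112, and no called value reversed. Named genera that were not called stayed so in 285 fits and gained a call in 9, those of Paramuribaculum (6) and UBA3263 (3). The planned edgeR test was not run. The table holds scaled values, and too few low values per library were available to check the reads recovered from them.

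Each count below is of all calls in a setting, with the count of the main fit in brackets. Genera changed (22) numbered 13 as a change from day 0, 11 of them among the 22. With only the 9 compared libraries in the fit they numbered 20, 17 of them among the 22. There 14-2, Avispirillum, Eubacterium_F, Limivicinus and Merdisoma lost the call (adjusted p = 0.0689 to 0.156 by limma). With only libraries of at least 1000 reads they numbered 24, all 22 among them. After thinning to 1000 reads they numbered 11 of 59 tested. Of the 22, 17 could be tested after thinning and 8 were called. With the replicate number as a block they numbered 5, and by exact permutation of each genus 0 (30 at an unadjusted p under 0.05). The smallest exact p is 0.0159, so counts by exact permutation here follow the number of genera, rows or families without overlap. Leaving out each library gave 15 to 23, with 15 without neomycin replicate 1 and without PBS replicate 4. Among the genera that lost the call without neomycin replicate 1 were 14-2 (adjusted p = 0.108 by limma), Eubacterium_F (0.108) and Limivicinus (0.0908). Avispirillum (0.0828), Schaedlerella (0.0694) and Anaerotruncus (0.0628) lost it there too. The replicate numbers of the sheets do not follow the mice, and same-numbered deviations correlated at -0.103 to 0.258, so the numbers do not pair the samples. Taxa changed (30) numbered 15 as a change from day 0, 17 after thinning and 0 by exact permutation, with 41 unadjusted (27 to 34 leaving out each library). Families changed (7) numbered 11 with a pseudocount of 0.001, 4 with 0.1, 4 with no filter, 4 with presence in 50% of libraries and 2 after thinning. By exact permutation of each family they numbered 0, with 11 unadjusted. Leaving out each library gave 3 to 8 families, the fewest without PBS replicate 4, and 4 without PBS replicate 3. Genera within Bacteroidota (5) numbered 2 with a pseudocount of 0.001, 1 after thinning and 9 by exact permutation of each genus (2 to 6 leaving out each library). Within Firmicutes (19) they numbered 4 as a change from day 0, 1 after thinning and 0 by exact permutation, with 18 unadjusted (13 to 21 leaving out each library). The change from day 0 within Firmicutes was fitted without neomycin replicate 1 and PBS replicates 1 and 4.

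Genera differing from the intravenous route (12) numbered 4 with a pseudocount of 0.1 and 6 with presence in 50%. From the intraperitoneal route (0) they numbered 1 with no filter and 11 with libraries of at least 1000 reads.

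R2 after leaving out each library was 0.354 to 0.612 inside Bacteroidota, the highest without neomycin replicate 1, and 0.301 to 0.362 inside Firmicutes. No adjusted exact permutation p reached 0.05 there. The smallest unadjusted p that an R2 can have with 1 library fewer is 0.0179 or 0.0286. Inside Bacteroidota every p was at that smallest value, so these p-values say nothing about stability. Inside Firmicutes the p was above it without neomycin replicate 2 (exact permutation p = 0.0357) and without neomycin replicate 4 (exact permutation p = 0.0714). Thinned, the Firmicutes R2 was 0.201 (adjusted exact permutation p = 0.0952). At family level it was 0.192 and 0.263, and at day 0 0.141 and 0.0522.

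The call on the Firmicutes Shannon difference depends on how the two-sided exact p is counted. The first version of the test counted splits with as large an absolute difference, and the difference of -0.986 then passed (exact permutation p = 0.0238, adjusted p = 0.0476). It was replaced, after these values were seen, by 2 times the smaller tail, as SciPy counts it, and the difference no longer passed (adjusted p = 0.0635). The Bacteroidota Shannon difference passed over table rows alone (-0.511).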

Other observations

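The rows of some genera held other shares of their genus with neomycin than in PBS; these genera were chosen after their values were seen and are given with no test. Of Alistipes_A_871400 reads, the row sp002362235 made up 5.33%, 51.4%, 68.5% and 67.6% in neomycin replicates 1 to 4 and 0% to 15.1% in PBS. Of Dysosmobacter reads, D. welbionis made up 0%, 0%, 0% and 2.28% with neomycin and 0% to 45.4% in PBS. Lawsonibacter butyricus made up 0%, 4.84%, 6.50% and 4.81% of Lawsonibacter reads with neomycin and was at 0 in all 5 PBS libraries. In Parasutterella, which rose, the row sp009767915 made up 57.7% to 100% of its reads in PBS and 0%, 0%, 1.14% and 0% with neomycin, where the row without a species held nearly all.

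Akkermansia, a mucin degrader of the Verrucomicrobiota, held 0.996%, 21.4%, 0.0329% and 0.109% of reads in neomycin replicates 1 to 4 and 0.00665%, 0.0992%, 0.0291%, 0.00775% and 0% in PBS replicates 1 to 5 (log2 4.45, SE 1.96, adjusted p = 0.0812 by limma). Replicate 2, with the highest Akkermansia share, was also the library with the highest CAG-485 share.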
